A study of Homo sapiens with 6 samples.

Results

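Matrix metalloproteinases (MMPs), their tissue inhibitors (TIMPs) and the ADAM and ADAMTS proteases were followed in HaCaT keratinocytes with and without knockdown of EIF4E, which encodes the cap-binding factor of translation initiation. They were taken as every row of the deposited gene table whose symbol is MMP, TIMP, ADAM or ADAMTS followed by a number, with an A or B allowed after an MMP number. This gave 50 of 29176 genes, of which 22 are MMP, 3 TIMP, 14 ADAM and 11 ADAMTS genes. HaCaT is an established, spontaneously immortalized human keratinocyte line. All 6 samples had been stimulated with M5, which the series title gives as the means of making a cell model of psoriasis, and total RNA was taken after 48 h. The groups were 3 samples with a small interfering RNA against eIF4E and M5 (si-eIF4E+M5) and 3 with the control RNA and M5 (si-NC+M5). The control group was therefore stimulated too, and a single line of 1 cell type stands for the psoriatic epidermis. The labels do not say whether replicates were separate cultures, so the p-values measure only how these samples vary, and that spread may be technical.

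MMPs are zinc-dependent proteases that are made as inactive precursors and cut collagens, laminins and other proteins outside the cell, either after secretion or while anchored in the plasma membrane. TIMPs bind the active site of MMPs and block it, and TIMP3 also blocks several ADAMs. ADAMs are membrane proteins that cut other membrane proteins close to the cell surface and so release growth factors, cytokines and adhesion molecules. ADAMTS enzymes are secreted, and their known substrates include proteoglycans, procollagens and von Willebrand factor. In skin, keratinocytes make several of these enzymes when they migrate over a wound or are stimulated by cytokines.

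Knockdown cells had more RNA of MMP9 and MMP7 and of ADAM19, ADAM28 and ADAM15, and less of MMP1, TIMP2, ADAM8, ADAM9, ADAMTS1, ADAMTS6 and ADAMTS12. These 5 higher and 7 lower genes were the members with an adjusted p under 0.05 by the quasi-likelihood test of edgeR, with Benjamini-Hochberg adjustment over all 18022 tested genes. The largest fall past that threshold was that of ADAMTS1, with a fold change of 0.310, and the largest rise was that of MMP9, by 1.45-fold. MMP14 and MMP28, the most abundant MMP transcripts, did not pass.

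The libraries held 71044961 to 74246501 counts. EIF4E had 1573, 1356 and 1724 counts in si-eIF4E+M5 cells, against 3620, 3371 and 3751 in si-NC+M5 cells (log2 fold change -1.25 ± 0.09, SE, adjusted p = 7.23e-05 in edgeR). In a principal component analysis the first component (31.6% of the variance) separated the groups, and si-NC+M5 replicate 1 stood apart from the other libraries on the second (18.6%). All 10 keratinocyte markers examined had over 10 counts in every library, and 4 were called higher and 1 lower. Their summed level was 9361 to 10412 CPM (counts scaled to effective library size) in si-eIF4E+M5 and 8742 to 9214 CPM in si-NC+M5 libraries. KRT15, for example, had 47784, 49633 and 44497 counts in si-eIF4E+M5 against 20726, 17988 and 19629 in si-NC+M5 libraries. ITGA6 went the other way, with 40131, 36628 and 46008 counts in si-eIF4E+M5 against 56046, 59138 and 66613 in si-NC+M5 libraries. The summed level of 8 fibroblast markers was 7.10 to 10.1 CPM in si-eIF4E+M5 libraries and 3.46 to 4.71 CPM in si-NC+M5 libraries. Most of it was COL1A1 and COL3A1, both called higher. FAP had 32, 12 and 10 counts in si-eIF4E+M5 against 4, 4 and 0 in si-NC+M5 libraries. THY1 and LUM were at 0 in the si-eIF4E+M5 libraries and had at most 8 counts in a si-NC+M5 library. COL1A2, the partner chain of COL1A1, had 4, 0 and 0 counts in si-eIF4E+M5 against 16, 8 and 0 in si-NC+M5 libraries. The 4 macrophage markers measured, mainly CD68, summed to 19.4 to 23.6 CPM in si-eIF4E+M5 and 14.3 to 16.6 CPM in si-NC+M5 libraries, and the part of these differences in the results below was not tested. In bulk RNA, fewer cells of a type and less RNA per cell cannot be told apart.

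Of the 50 members, 31 had more than 10 counts in each of the 6 libraries and 45 had more than 10 in at least 1. By family, the 31 were 16 MMP, 3 TIMP, 8 ADAM and 4 ADAMTS genes. The filter on low counts left 38 members to be tested, namely 18 MMP, 3 TIMP, 9 ADAM and 8 ADAMTS genes. The 12 that were not tested had at most 20 counts in any library. Among those 12, ADAM20, ADAM21 and ADAMTS16 had 0 counts in all si-eIF4E+M5 libraries and ADAM23 had 0 in all si-NC+M5 libraries. Each of these 4 was also at 0 in at least 1 library of the other group, and no fold change is given for them.

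Of the 38 tested members, 12 (31.6%) were called, and the share over all tested genes was 15.8% (7.44% higher and 8.40% lower). Sensitivity to small changes grows with level, and among members with a mean of at least 1 FPKM (a level scaled to gene length and library total) 9 of 17 were called (52.9%), against 22.0% of all tested genes at that level. The members were chosen by name and the list was not tested as a set. The groups did not overlap in 20 of 38 tested members (52.6%) and in 33.8% of all tested genes. The median log2 fold change was -0.05 over the 38 members and -0.01 over all tested genes.

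**Figure D1:**
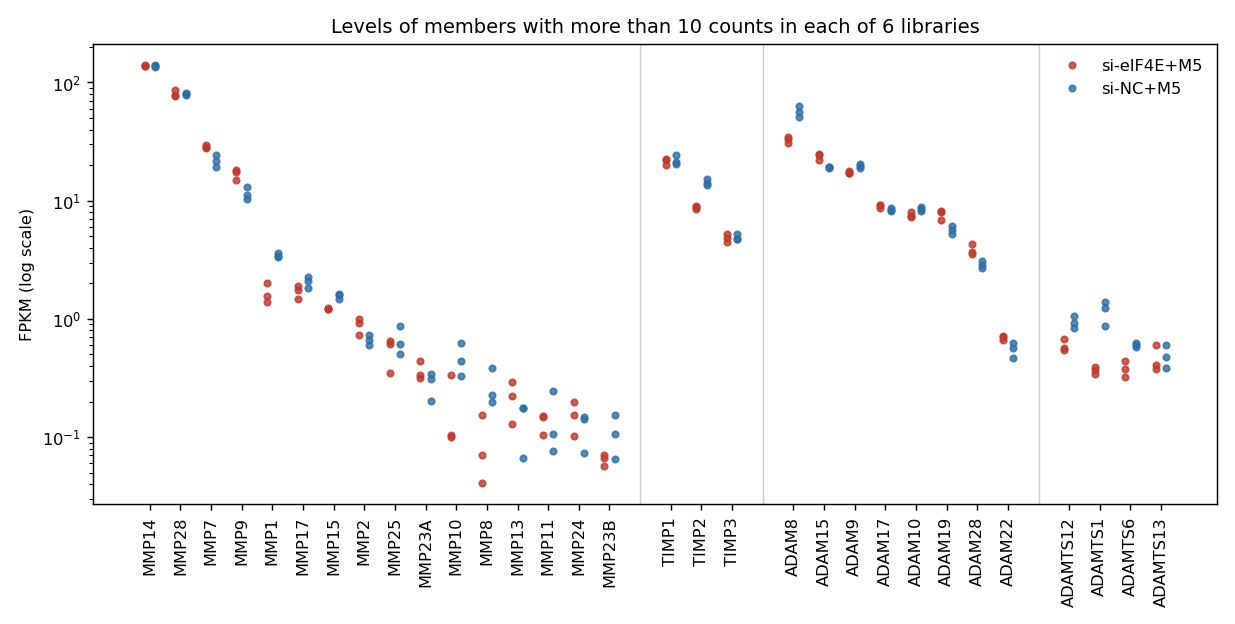
FPKM on a log scale of the 31 members with more than 10 counts in every library, by family and in order of mean level, with 1 point per library (red si-eIF4E+M5, blue si-NC+M5). MMP14 lies near 138 FPKM in both groups, and the ADAMTS genes lie near or below 1 FPKM.

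In both groups the MMP RNA was mostly that of MMP14 and MMP28. MMP14, the membrane-anchored collagenase that activates the precursor of MMP2 together with TIMP2, made up 49.2, 51.1 and 52.4% of the summed MMP FPKM in si-eIF4E+M5 libraries and 52.8, 53.5 and 52.0% in si-NC+M5 libraries. Its level was 138.8 ± 1.81 FPKM in si-eIF4E+M5 and 137.9 ± 3.03 FPKM in si-NC+M5 cells (SD, n = 3 each). Its fold change was 0.99 with a 95% confidence interval of 0.91 to 1.07 (adjusted p = 0.858 in edgeR), an interval that holds only changes of less than 10%. MMP28, epilysin, a secreted MMP found in keratinocytes, followed with 80.9 ± 5.28 FPKM in si-eIF4E+M5 and 80.2 ± 2.04 FPKM in si-NC+M5 cells (fold change 0.99, interval 0.90 to 1.08, adjusted p = 0.886 in edgeR). MMP28 overlaps TAF15, a gene on the other strand with a similar number of counts, and the use of strand in counting is not given in the sources used here.

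MMP7 and MMP9, next in level, were both higher after knockdown. MMP7, matrilysin, a small secreted protease without the hemopexin domain of most MMPs, had 69.9, 68.8 and 68.0 CPM in si-eIF4E+M5 libraries, against 58.9, 47.4 and 53.2 CPM in si-NC+M5 libraries. Each knockdown library lay above each control library. The log2 fold change was 0.37 ± 0.08 (SE, adjusted p = 0.0104 in edgeR). MMP9, gelatinase B, which cuts denatured collagens and the type IV collagen of basement membranes, had 41.5, 44.9 and 36.9 CPM in si-eIF4E+M5 libraries, against 27.1, 32.3 and 25.4 CPM in si-NC+M5 libraries. The gene (ENSG00000100985) lies at 46008908 to 46016561 on chromosome 20. The groups again did not overlap, and the log2 fold change was 0.54 ± 0.10 (adjusted p = 0.00698 in edgeR). MMP2, the other gelatinase, had 4.71, 4.56 and 3.65 CPM in si-eIF4E+M5 against 2.97, 3.69 and 3.32 CPM in si-NC+M5 libraries, groups that overlap by 1 library (0.37 ± 0.18, adjusted p = 0.196 in edgeR). A two-sided exact permutation test of a single gene gives p = 0.1 for each member whose groups do not overlap, the smallest value that 3 against 3 samples allow.

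Of the collagenases, which cut the triple helix of fibrillar collagens, MMP1 fell and the other two did not pass. MMP1 had 3.14, 2.91 and 4.14 CPM in si-eIF4E+M5 libraries, against 7.03, 7.64 and 6.94 CPM in si-NC+M5 libraries. The groups were far apart, and MMP1 (ENSG00000196611) had a fold change of 0.472 (log2 fold change -1.08 ± 0.17, adjusted p = 0.00245 in edgeR). MMP8, known as the collagenase of neutrophils, had 19, 11 and 41 counts in si-eIF4E+M5 and 98, 59 and 53 counts in si-NC+M5 libraries. Its log2 fold change of -1.61 ± 0.51 missed the threshold (adjusted p = 0.0596 in edgeR). MMP8 passed it in DESeq2 (adjusted p = 0.0204) and with a robust spread estimate in edgeR (0.0415). It also passed when si-eIF4E+M5 replicate 3 was left out (-2.27, adjusted p = 0.0202). MMP13 had 63, 50 and 28 counts in si-eIF4E+M5 and 38, 15 and 39 counts in si-NC+M5 libraries, which overlap (0.57 ± 0.48), and did not pass.

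Among the stromelysins, MMP10, made by keratinocytes at wound edges, had 46, 15 and 14 counts in si-eIF4E+M5 and 44, 59 and 86 counts in si-NC+M5 libraries. In CPM the groups touched without overlapping, at 0.614 for the highest si-eIF4E+M5 and 0.618 for the lowest si-NC+M5 library. Its log2 fold change was -1.38 ± 0.52 (adjusted p = 0.106 in edgeR), and without si-eIF4E+M5 replicate 1, the high library of its group, it was -2.14 (adjusted p = 0.0257). MMP3 had at most 19 counts in any library, and MMP11 had overlapping groups (adjusted p = 0.916 in edgeR). Of the membrane-type MMPs other than MMP14, MMP15 had 5.32, 5.40 and 5.38 CPM in si-eIF4E+M5 and 6.58, 7.17 and 7.24 CPM in si-NC+M5 libraries. These groups did not overlap, but the change of -0.38 ± 0.13 did not pass (adjusted p = 0.0710 in edgeR). MMP17 had a log2 fold change of -0.31 ± 0.15 and MMP25 of -0.34 ± 0.28 (adjusted p = 0.216 and 0.478 in edgeR), and MMP24 did not pass either (0.29 ± 0.41, adjusted p = 0.711 in edgeR). MMP24 and MMP25 overlap antisense genes with more counts than their own. MMP23B and MMP23A, a near-identical gene and pseudogene that can share reads, had 12 to 27 and 16 to 34 counts per library, and neither passed (adjusted p = 0.570 and 0.743 in edgeR). MMP21 had at most 33 counts, and MMP12, MMP16, MMP19 and MMP20 were not tested.

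MMP genes lie in a cluster on chromosome 11, and 8 members (MMP7, MMP20, MMP8, MMP10, MMP1, MMP3, MMP12 and MMP13, in this order) lie between 102520508 and 102955732 in GRCh38. Of the 6 tested there, MMP7 at one end was higher and MMP1 lower. MMP8 and MMP10, which lie between them beside MMP1, also had negative log2 fold changes with groups apart but did not pass, and MMP3 and MMP13 did not pass either. The promoters of MMP7, called higher, and MMP10, not called, are shown because they carry the same pair of elements at nearly the same place. They are the 250 bases before and 50 after the annotated start in RefSeq on GRCh38.p14, both on the minus strand, at chr11:102530698-102530997 for MMP7 and chr11:102780579-102780878 for MMP10. MMP10 was chosen after its values were seen, and the part of these elements in the level of either gene was not tested. Capitals mark matches to the AP-1 element TGANTCA and to the TATA box TATAAA.
MMP7: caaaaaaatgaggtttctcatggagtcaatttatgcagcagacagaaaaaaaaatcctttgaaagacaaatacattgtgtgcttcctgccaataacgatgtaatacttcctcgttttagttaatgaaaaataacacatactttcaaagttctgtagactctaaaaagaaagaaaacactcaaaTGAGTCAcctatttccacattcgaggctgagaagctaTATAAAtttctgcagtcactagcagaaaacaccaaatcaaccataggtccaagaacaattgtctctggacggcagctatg
MMP10: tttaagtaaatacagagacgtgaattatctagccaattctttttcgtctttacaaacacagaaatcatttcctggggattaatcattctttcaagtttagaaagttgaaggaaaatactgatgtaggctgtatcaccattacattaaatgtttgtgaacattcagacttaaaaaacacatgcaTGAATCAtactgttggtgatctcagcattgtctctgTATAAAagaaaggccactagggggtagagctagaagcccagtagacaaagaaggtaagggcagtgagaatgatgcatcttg
The AP-1 match starts at position -67 in both, counted from the start as +1, and reads TGAGTCA in MMP7 and TGAATCA in MMP10. The TATA match starts at -30 in MMP7 and at -31 in MMP10. A match to letters is a description and does not show that a factor binds.

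RefSeq promoters of 300 bases were at hand for 28 of the 50 members, 6 of them called. Both strands were searched, and TGANTCA reads the same on each. It was found in 7.71% of 35116 promoters, in 4 of the 28 members (MMP7, MMP10, MMP20 and ADAMTS12) and so in 2 of the 6 called ones. TATAAA was found in 11.5% of all promoters and in 6 of 28 members. GGAA, the core letters of ETS sites, was found in 95.5% of all promoters and in all 28, so its presence separates nothing here. ADAMTS12 fell, and its promoter (chr5:33891941-33892240, minus strand) is shown as the other called member with an AP-1 match, which is in capitals and starts at position -84. ADAM8 fell as well, and its promoter (chr10:133276819-133277118, minus strand) is shown as that of the most abundant member that fell. It holds neither of the elements, so nothing is in capitals.
ADAMTS12: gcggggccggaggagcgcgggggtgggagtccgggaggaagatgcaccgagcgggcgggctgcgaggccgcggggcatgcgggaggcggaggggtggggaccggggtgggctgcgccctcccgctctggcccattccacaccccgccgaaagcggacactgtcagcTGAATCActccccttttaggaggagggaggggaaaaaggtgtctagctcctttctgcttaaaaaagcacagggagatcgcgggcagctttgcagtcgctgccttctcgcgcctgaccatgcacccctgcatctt
ADAM8: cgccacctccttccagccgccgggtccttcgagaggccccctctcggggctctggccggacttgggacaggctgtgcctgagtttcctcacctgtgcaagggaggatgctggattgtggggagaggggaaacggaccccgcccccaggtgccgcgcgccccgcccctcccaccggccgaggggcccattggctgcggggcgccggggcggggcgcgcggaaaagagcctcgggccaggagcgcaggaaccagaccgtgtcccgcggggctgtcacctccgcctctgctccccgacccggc

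**Figure D2:**
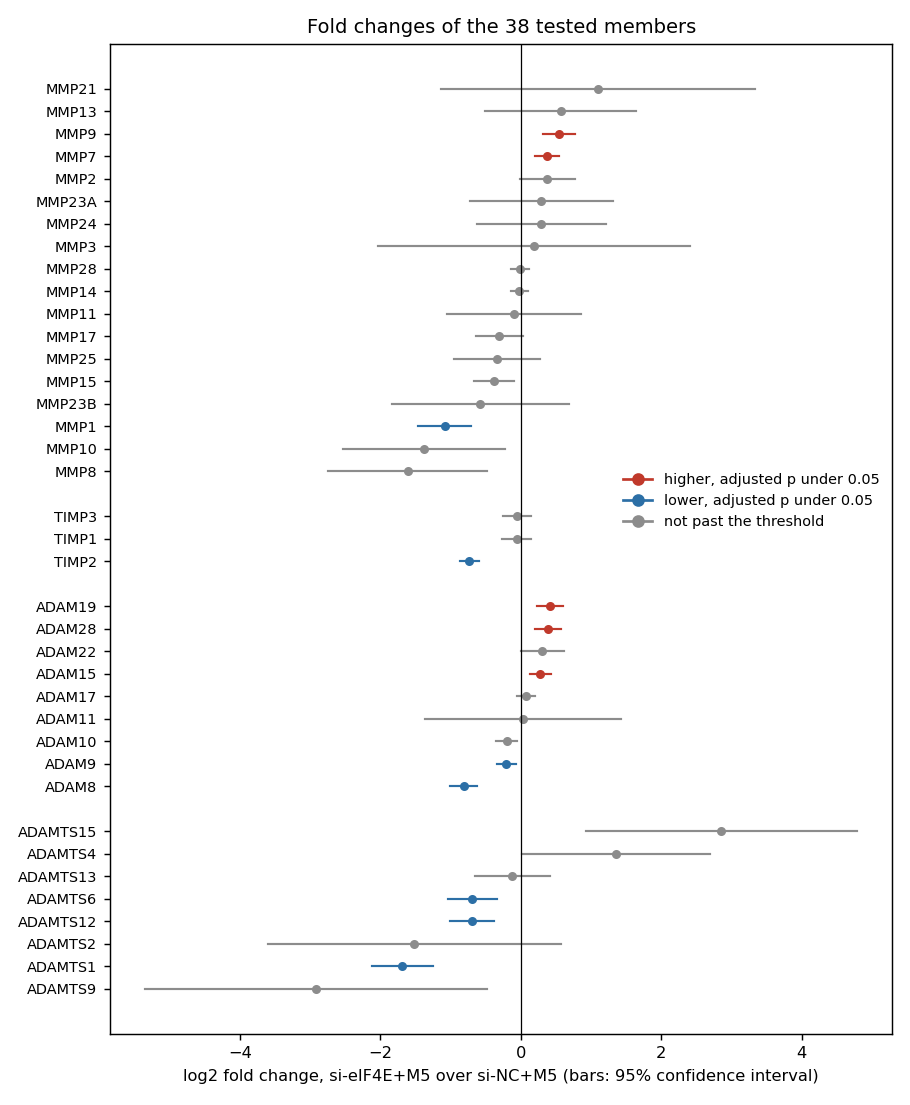
Log2 fold change between si-eIF4E+M5 and si-NC+M5 (positive where si-eIF4E+M5 was higher) for the 38 tested members by family, with 95% confidence intervals from edgeR (red higher, blue lower, grey not past the threshold). The intervals of MMP14, MMP28, TIMP1, TIMP3 and ADAM17 are narrow and hold 0, while those of ADAMTS2, ADAMTS9, ADAMTS15, MMP3 and MMP21 are several log2 units wide.

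Of the inhibitors, TIMP2 fell and TIMP1 and TIMP3 did not pass. TIMP2 had 51.2, 52.9 and 50.2 CPM in si-eIF4E+M5 libraries, against 83.4, 91.4 and 81.5 CPM in si-NC+M5 libraries. The gene (ENSG00000035862) lies at 78852977 to 78922401 on chromosome 17 in GRCh38. It had the smallest adjusted p of all members, with a fold change of 0.602 (95% confidence interval 0.546 to 0.663, log2 fold change -0.73 ± 0.06, adjusted p = 1.63e-04 in edgeR). TIMP1, a soluble inhibitor of most secreted MMPs, had 29.1, 34.5 and 33.4 CPM in si-eIF4E+M5 and 37.1, 31.3 and 32.6 CPM in si-NC+M5 libraries (fold change 0.96, interval 0.83 to 1.11, adjusted p = 0.737 in edgeR). TIMP3, which is bound to the matrix and blocks ADAM17, had 20.8, 23.3 and 25.1 CPM in si-eIF4E+M5 and 25.1, 23.3 and 23.2 CPM in si-NC+M5 libraries (fold change 0.97, interval 0.84 to 1.11, adjusted p = 0.785 in edgeR).

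Summed over the family, MMP RNA was 279.8, 269.8 and 268.6 FPKM in si-eIF4E+M5 and 262.1, 262.9 and 258.7 FPKM in si-NC+M5 libraries. TIMP RNA summed to 33.4, 36.4 and 35.7 FPKM in si-eIF4E+M5 and 43.9, 40.2 and 39.6 FPKM in si-NC+M5 libraries. The ratio of the sums was 7.77 ± 0.54 in si-eIF4E+M5 and 6.35 ± 0.33 in si-NC+M5 cells (SD, n = 3 each, two-sided exact permutation p = 0.1, the smallest possible), with no overlap. The ratio of MMP14 to TIMP2, which together act on MMP2, was 15.3, 15.4 and 16.6 in si-eIF4E+M5 and 9.78, 9.25 and 9.87 in si-NC+M5 libraries. That of MMP9 to TIMP1, the inhibitor that binds the MMP9 precursor, was 0.885, 0.806 and 0.685 in si-eIF4E+M5 and 0.452, 0.639 and 0.482 in si-NC+M5 libraries. That of ADAM17 to TIMP3 overlapped between groups (1.88 ± 0.16 in si-eIF4E+M5 and 1.73 ± 0.14 in si-NC+M5 cells). These are ratios of RNA levels per gene length, and no protein or enzyme activity was measured. They are formed from the levels of single genes given above and are not separate evidence of a change. MMP14 and TIMP1 were not called, while TIMP2 and MMP9 were.

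**Figure D3:**
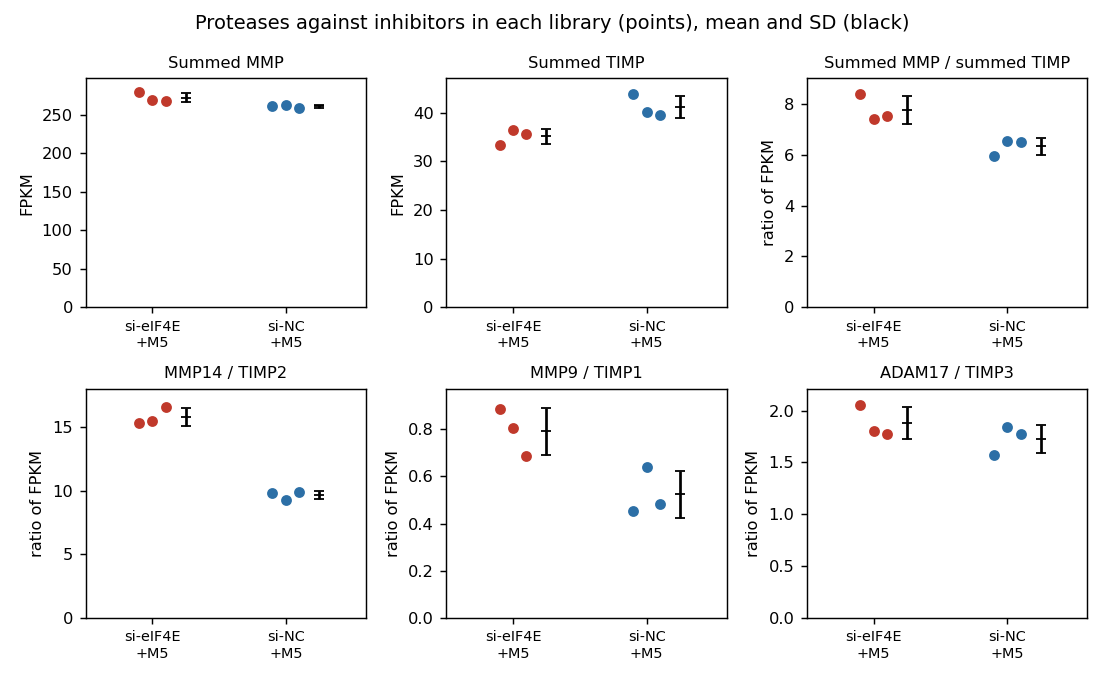
Summed FPKM of the MMP and TIMP genes and ratios of proteases to inhibitors, with 1 point per library and the mean and SD in black (si-eIF4E+M5 left, si-NC+M5 right, axes from 0). The MMP14 to TIMP2 ratio lies between 15.3 and 16.6 in si-eIF4E+M5 and between 9.25 and 9.87 in si-NC+M5 libraries, and the ADAM17 to TIMP3 points overlap.

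The ADAM genes with a protease site moved in both directions. ADAM8, a sheddase best known from leukocytes and also made by stimulated epithelia, was the most abundant ADAM transcript, with 32.9 ± 1.78 FPKM in si-eIF4E+M5 and 56.7 ± 6.01 FPKM in si-NC+M5 cells (SD, n = 3 each). In CPM it had 148.7, 172 and 166 in si-eIF4E+M5 libraries, against 279, 320.5 and 258 in si-NC+M5 libraries, which do not overlap. The gene (ENSG00000151651) lies at 133262420 to 133276868 on chromosome 10. Its log2 fold change was -0.81 ± 0.09 (adjusted p = 4.15e-04 in edgeR), and its share of the summed ADAM FPKM was 31.9 ± 0.90% in si-eIF4E+M5 and 46.5 ± 2.37% in si-NC+M5 cells. ADAM19, a sheddase of neuregulins, had 62.4, 66.6 and 56.0 CPM in si-eIF4E+M5 libraries, against 45.7, 50.6 and 42.5 CPM in si-NC+M5 libraries. ADAM28, known from lymphocytes and epithelia, had 41.0, 36.0 and 34.8 CPM in si-eIF4E+M5 libraries, against 30.02, 28.5 and 26.8 CPM in si-NC+M5 libraries. Both were higher in each knockdown library, with log2 fold changes of 0.41 ± 0.08 for ADAM19 and 0.39 ± 0.08 for ADAM28 (adjusted p = 0.00938 for ADAM19 and 0.0112 for ADAM28 in edgeR). ADAM19 overlaps NIPAL4 on the other strand, which has more counts and did not pass (-0.04, adjusted p = 0.749 in edgeR).

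ADAM15 and ADAM9 passed with small changes. ADAM15, the ADAM that carries an integrin-binding RGD motif in humans, had 147.5, 171 and 168 CPM in si-eIF4E+M5 libraries, against 131.5, 136 and 135 CPM in si-NC+M5 libraries (0.27 ± 0.07, adjusted p = 0.0201 in edgeR). ADAM9, a widely expressed sheddase, had 121, 128 and 131 CPM in si-eIF4E+M5 libraries, against 138, 152 and 147 CPM in si-NC+M5 libraries (-0.20 ± 0.06, adjusted p = 0.0477 in edgeR). The groups of each stayed apart, yet the ADAM9 call was lost without any of the 6 libraries in turn (adjusted p between 0.0562 and 0.177). The ADAM15 call was lost without any library other than si-eIF4E+M5 replicate 1 (adjusted p between 0.0506 and 0.0764).

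The main sheddases of keratinocytes, ADAM10 and ADAM17, were not called. ADAM17, which releases TNF and the EGFR ligands TGFA, AREG and HBEGF, had 99.99, 98.4 and 104 CPM in si-eIF4E+M5 and 92.5, 99.9 and 95.9 CPM in si-NC+M5 libraries, and its interval of 0.96 to 1.15 for the fold change holds 1 (adjusted p = 0.486 in edgeR). ADAM10, which cuts E-cadherin and Notch receptors, had 119, 123 and 134 CPM in si-eIF4E+M5 and 138, 144 and 151 CPM in si-NC+M5 libraries. These groups do not overlap, and the log2 fold change of -0.20 ± 0.07 missed the threshold (adjusted p = 0.0618 in edgeR). It passed in DESeq2 (adjusted p = 0.0305) and with a robust spread estimate in edgeR (0.0436). It also passed with the replicate number as a block (0.0182) and without si-eIF4E+M5 replicate 3 (0.0418). ADAM9 and ADAM10 had log2 fold changes of nearly the same size on either side of the threshold. ADAM22, which has no protease activity and is known as a receptor in neurons, was the only non-protease ADAM with over 10 counts in every library (0.30 ± 0.14, adjusted p = 0.174 in edgeR). ADAM11 had 8 to 30 counts, and ADAM12, ADAM20, ADAM21, ADAM23 and ADAM32 were not tested.

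ADAMTS RNA was scarce, and the 3 called members all fell. Summed over the 11 genes it was 1.92 ± 0.22 FPKM in si-eIF4E+M5 and 3.31 ± 0.28 FPKM in si-NC+M5 cells (SD, n = 3 each). ADAMTS1 (ENSG00000154734, chromosome 21, 26835755 to 26845409), which cleaves versican and aggrecan, had 183, 203 and 213 counts in si-eIF4E+M5 and 458, 728 and 681 counts in si-NC+M5 libraries. In CPM it had 2.44, 2.76 and 2.91 in si-eIF4E+M5 against 6.44, 10.4 and 9.30 in si-NC+M5 libraries, with si-NC+M5 replicate 1 the lowest of its group and still far above the knockdown libraries (log2 fold change -1.69 ± 0.19, adjusted p = 5.92e-04 in edgeR). ADAMTS12, which cleaves the cartilage protein COMP, had 6.61, 5.70 and 5.46 CPM in si-eIF4E+M5 against 8.48, 10.8 and 9.45 CPM in si-NC+M5 libraries (-0.69 ± 0.14, adjusted p = 0.00907 in edgeR). ADAMTS6 had 3.81, 2.95 and 3.40 CPM in si-eIF4E+M5 against 5.65, 5.29 and 5.45 CPM in si-NC+M5 libraries (-0.69 ± 0.16, adjusted p = 0.0153 in edgeR). The groups of each stayed apart, though the ADAMTS6 call was lost when replicate 2 of either group was left out (highest adjusted p = 0.0527, without the si-eIF4E+M5 one).

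No ADAMTS gene was called higher by edgeR with its standard spread estimate or by DESeq2, and 2 of 8 were higher at an unadjusted p under 0.05 in edgeR. These were ADAMTS15 and ADAMTS4, which like ADAMTS1 cleave proteoglycans. ADAMTS15 had 18, 20 and 24 counts in si-eIF4E+M5 and 0, 4 and 4 counts in si-NC+M5 libraries (log2 fold change 2.85 ± 0.87, adjusted p = 0.0512 in edgeR, and 0.0455 with a robust spread estimate, which calls it higher). ADAMTS4 had 18, 22 and 24 counts in si-eIF4E+M5 and 11, 5 and 8 counts in si-NC+M5 libraries (adjusted p = 0.168 in edgeR). Over all families, 10 members overlap a gene on the other strand that averages over 100 counts, and without strand in the counting such reads cannot be told apart, which weighs most on members with few counts. ADAMTS9, of the same subgroup, had 0, 0 and 12 counts in si-eIF4E+M5 and 33, 36 and 21 counts in si-NC+M5 libraries (adjusted p = 0.106 in edgeR, and 0.00913 without si-eIF4E+M5 replicate 3, where its group is at 0). All 4 proteoglycan-cleaving members had groups without overlap, 2 above and 2 below the control, and only ADAMTS1 was called. Over all tested genes the share without overlap was 33.8%. ADAMTS15, ADAMTS4 and ADAMTS9 passed the filter on low counts through the group where they were high, which favours groups that stay apart. Their separation is therefore no result about the subgroup. ADAMTS13, the von Willebrand factor protease, had 166 to 261 counts in si-eIF4E+M5 and 165 to 269 in si-NC+M5 libraries (adjusted p = 0.802 in edgeR). Of the procollagen-processing members ADAMTS2 had at most 49 counts, and ADAMTS3 and ADAMTS14 were not tested.

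**Figure D4:**
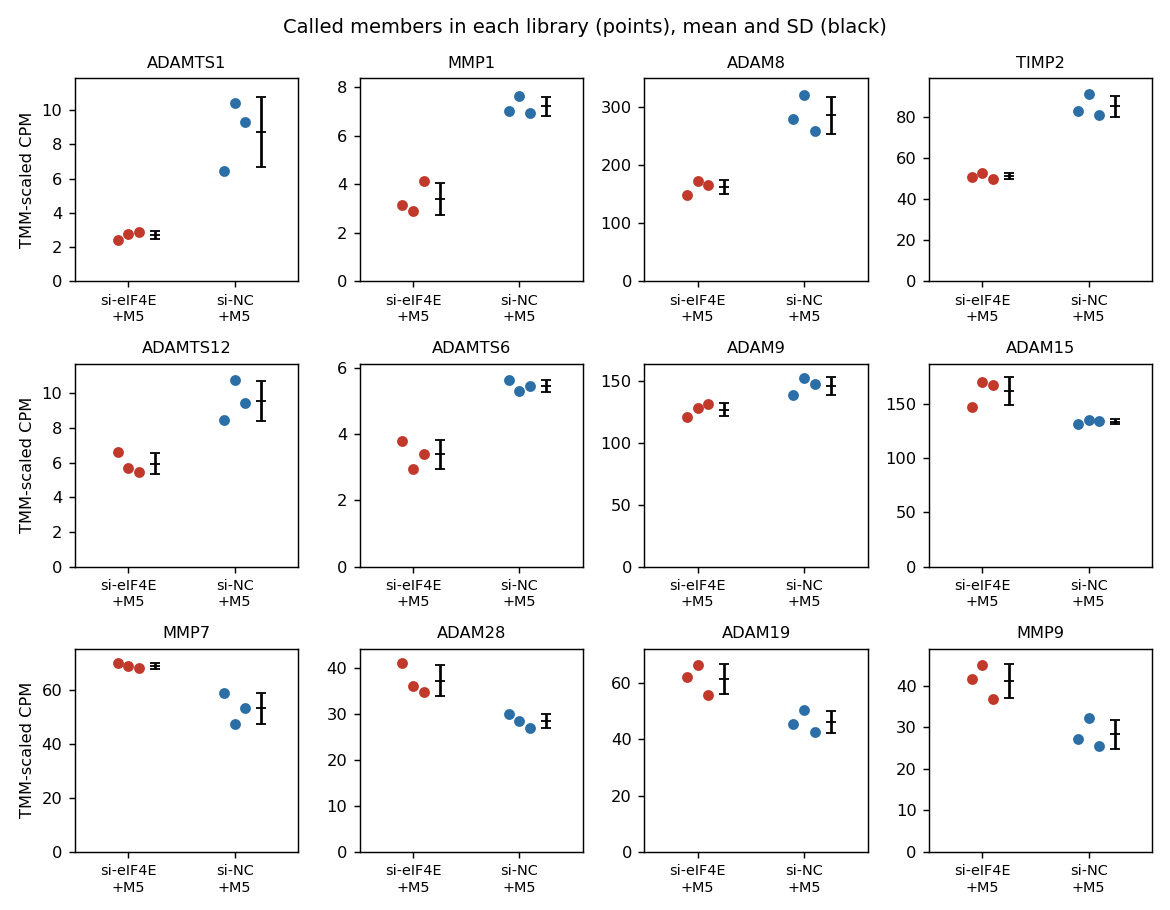
TMM-scaled CPM of the 12 called members in each library (red si-eIF4E+M5 at left, blue si-NC+M5 at right), with the mean and SD in black and axes from 0, ordered from the largest fall to the largest rise. The groups do not overlap in any of the 12, and the gap is small beside the level in ADAM9 and ADAM15.

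Genes that act with these proteases were drawn up in 6 lists, with earlier results of these data known. The counts below stand beside a share of 15.8% over all tested genes. Among tested genes with a mean of at least 1 FPKM, the level of many listed genes, that share was 22.0%. No list was tested as a set. Of 19 tested genes that activate or restrain MMPs, 7 fell and 1 rose (42.1% called, median log2 fold change -0.11). SERPINB2, the plasminogen activator inhibitor PAI-2, had 93.8 ± 8.96 CPM in si-eIF4E+M5 and 369 ± 65.4 CPM in si-NC+M5 cells. Thrombospondin THBS1, which binds MMPs, had 166 ± 8.13 CPM in si-eIF4E+M5 and 415 ± 31.6 CPM in si-NC+M5 cells, and the urokinase receptor PLAUR had 27.5 ± 2.69 CPM in si-eIF4E+M5 and 43.9 ± 4.12 CPM in si-NC+M5 cells (log2 fold changes -1.98 for SERPINB2, -1.32 for THBS1 and -0.67 for PLAUR, adjusted p = 3.53e-05, 1.96e-05 and 0.00143 in edgeR in the same order). LRP1, the receptor that clears many MMPs and TIMP complexes, was the gene that rose (0.50 ± 0.15, adjusted p = 0.0475 in edgeR), and its call was lost without any of the 6 libraries in turn (adjusted p between 0.0502 and 0.153). FURIN, which removes the inhibitory part of MMP14 and of ADAM precursors, did not pass (0.10 ± 0.06, adjusted p = 0.259 in edgeR).

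Of 9 partners of ADAM17 and ADAM10, namely the iRhoms with their binding partner FRMD8 and TspanC8 tetraspanins, 1 fell and none rose in edgeR or DESeq2, and none was higher at an unadjusted p under 0.05. The member that fell was RHBDF2, iRhom2, with 66.7 ± 1.36 CPM in si-eIF4E+M5 and 79.6 ± 4.94 CPM in si-NC+M5 cells (-0.26 ± 0.06, adjusted p = 0.0199 in edgeR). Its call was lost without si-eIF4E+M5 replicate 1 or 3 or si-NC+M5 replicate 1 or 2 (highest adjusted p = 0.0884). Of 33 membrane proteins that ADAM10 or ADAM17 shed, 10 fell and 2 rose (36.4% called, median -0.07). CX3CL1, 1 of the 2 that rose, had 26, 12 and 19 counts in si-eIF4E+M5 and 4, 0 and 0 counts in si-NC+M5 libraries. It passed the filter on low counts only through the group where it was high. The EGFR ligands AREG (-0.98 ± 0.17) and HBEGF (-0.61 ± 0.09) and the receptor kinase MET (-0.67 ± 0.09) had the largest falls among those of at least 1 FPKM, and the interleukin-6 receptor IL6R rose (0.64 ± 0.14). IL6R had 13.2, 13.5 and 12.8 CPM in si-eIF4E+M5 libraries, against 6.84, 8.80 and 9.81 CPM in si-NC+M5 libraries, which do not overlap.

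Matrix proteins that these enzymes cut were mostly higher where called, with 6 of 17 up and 2 down (47.1% called, median 0.21). NID1, nidogen, a linker of basement membranes, had 6.72 ± 0.61 CPM in si-eIF4E+M5 and 1.44 ± 0.24 CPM in si-NC+M5 cells (2.22 ± 0.18). Tenascin TNC (0.94 ± 0.11) and the type IV collagen chain COL4A6 (0.70 ± 0.11) rose too, and the laminin chain LAMA3 (-0.57 ± 0.09) fell (adjusted p between 1.46e-04 and 0.00285 in edgeR for these 4 genes). The other called members that rose were COL4A5 and the fibroblast collagens COL1A1 and COL3A1, which are also in the fibroblast marker list above, with COL1A1 at 6.51 ± 1.42 CPM in si-eIF4E+M5 and 3.10 ± 0.47 CPM in si-NC+M5 cells. Of 11 ADAMTS-like proteins and ADAMTS substrates 2 fell and none rose in edgeR or DESeq2, with none higher at an unadjusted p under 0.05 (18.2% called, median -0.11). They were THSD4 (-0.42 ± 0.09) and ADAMTSL5 (-0.35 ± 0.09), and each call was lost without any of several libraries (highest adjusted p = 0.0647 without si-NC+M5 replicate 2 for THSD4 and 0.105 without si-NC+M5 replicate 1 for ADAMTSL5).

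AP-1 and ETS transcription factors, which act on the promoters of MMP1, MMP9 and other MMPs, were lower in 5 of 15 cases and higher in 1 (40.0% called, median -0.04). FOSL1, an AP-1 subunit, had 55.7, 64.9 and 51.3 CPM in si-eIF4E+M5 libraries, against 114, 134 and 107 CPM in si-NC+M5 libraries (-1.05 ± 0.10). The ETS factors ETV5 (-1.03 ± 0.09) and ETV4 (-0.80 ± 0.10) were lower in each knockdown library as well (adjusted p between 1.51e-04 and 7.00e-04 in edgeR for the 3 genes). FOSL2, the AP-1 subunit closest to FOSL1, rose (0.29 ± 0.06, adjusted p = 0.0112 in edgeR), a call that was lost without si-NC+M5 replicate 1 or replicate 2 (highest adjusted p = 0.0537). JUN and JUNB did not pass (-0.09 ± 0.09 and 0.07 ± 0.06, adjusted p = 0.594 and 0.542 in edgeR).

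**Figure D5:**
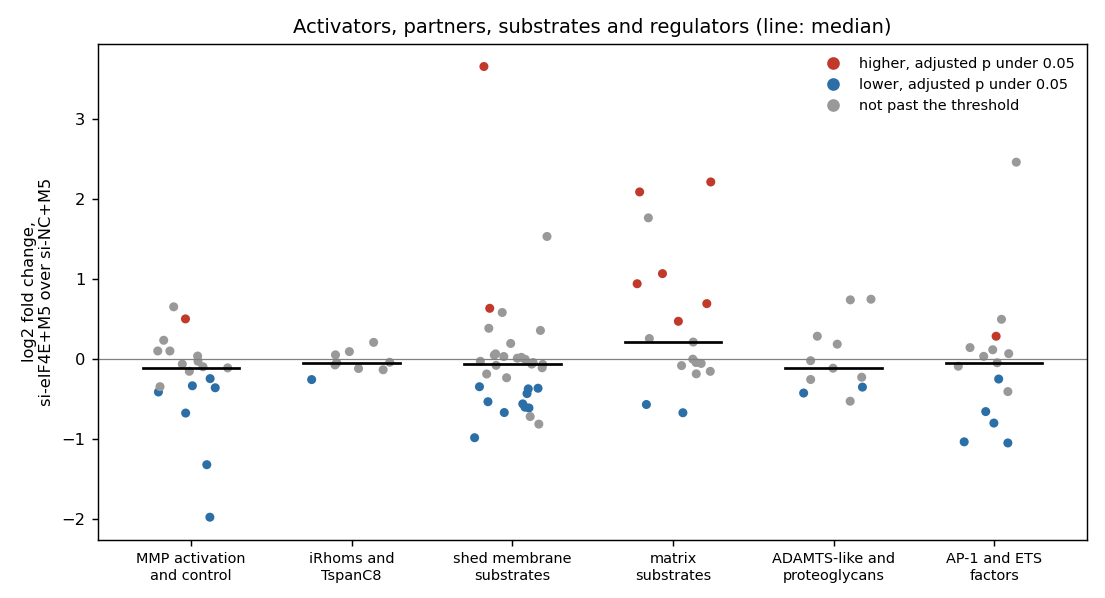
Log2 fold change between si-eIF4E+M5 and si-NC+M5 (positive where si-eIF4E+M5 was higher) for the tested genes of the 6 related lists, with 1 point per gene (red higher, blue lower, grey not past the threshold) and a black line at the median. The medians lie between -0.11 and 0.21, and called genes lie on both sides of 0 in 4 of the lists.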

How the data were processed

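RNA of 6 HaCaT samples, 3 si-eIF4E+M5 and 3 si-NC+M5, was sequenced. For each gene the authors deposited a count and an FPKM value in every sample, per the file headers. Reads were handled with cutadapt 1.9 and FastQC and placed on GRCh38, per the submitters' processing notes. The aligner, the counter, the annotation and the use of strand were not given in the sources used here. In 100% of 9940 genes over 500 counts per library, the ratio of count to FPKM followed the library totals within 1%.

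Counts were tested with edgeR 4.0.16 in R 4.3.3 (filterByExpr, TMM factors between 0.98 and 1.04, quasi-likelihood test, two-sided, adjusted p under 0.05 over all genes, SE from the F statistic), checked on simulated counts. CPM are TMM-scaled and levels between genes are FPKM. Alternatives were DESeq2 1.42.0, limma 3.58.1 on log2(FPKM + 1) and log2(FPKM + 0.1), other filters and scaling, a robust spread, a replicate block, and leaving out single libraries. Intervals cover 95%. No replicates were duplicates of each other (chi-squared of 21.3 to 25.7 for each degree of freedom within groups). Members and lists were chosen with earlier results of these data known. Members were named if called, over 10 counts in every library, or first in level in their family. Up to 3 genes per direction were named in each related list, by size of change among called genes of at least 1 FPKM in the higher group. Other genes named were chosen after their values were seen, and some results are not reported here. Melanocyte markers (5 measured) summed to 3.25 to 3.70 CPM in si-eIF4E+M5 and 3.26 to 4.83 CPM in si-NC+M5 libraries, and endothelial markers (3 measured) to 2.19 to 3.28 CPM in si-eIF4E+M5 and 1.09 to 3.87 CPM in si-NC+M5 libraries. Tables were made with pandas 2.3.3 and scipy 1.17.1 and figures with matplotlib 3.10.9.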

Additional observations from a re-analysis of the deposited data

How the results depend on the processing

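Of the 12 called members, 7 (TIMP2, ADAM8, ADAMTS1, MMP1, MMP9, MMP7 and ADAM19) kept their call and direction in each of the 14 alternatives that tested them, and none of the 12 changed sign in any alternative. The calls of ADAM9, ADAM15, ADAMTS6, ADAM28 (limma on log2(FPKM + 1), adjusted p = 0.0506) and ADAMTS12 (limma on log2(FPKM + 0.1), adjusted p = 0.0569) were lost in at least 1. The number of lower members was 4 among genes with a mean of at least 1 FPKM, where 17 members are tested and the called ADAMTS genes are not. With 1 library left out, 4 to 5 members were higher and 5 to 9 lower, 9 to 11 of the 12 among them, with 10 of the 12 without si-NC+M5 replicate 1. Over all genes, 2853 were called, 1818 without a filter on low counts and 1598 to 2283 with 1 library left out, the lowest without si-NC+M5 replicate 2. The cause of these shifts was not tested. On the log2(FPKM + 1) scale the change of ADAMTS1 was -0.65, since the added 1 is of the size of its level. Same-numbered libraries deviated together only slightly (r = 0.03, 0.03 and 0.04 over 18022 genes, each the highest for its library). All other pairs of libraries across groups had negative r, between -0.030 and -0.002. These are deviations from group means, which sum to 0 within a group. A positive r for the same number thus forces negative values among the rest, which are no separate observation. The main test does not take the numbers as pairs, and whether they are pairs is not settled by these values. With the replicate block 3414 genes were called, 5 members higher and 8 lower, ADAM10 being the addition. Depth limits the members under 10 counts, where a count of 0 allows up to 3 counts (0.0404 to 0.0422 CPM).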
